A study of Homo sapiens with 2 samples.

Results

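The genes described here are the replication-dependent histone genes of the human lung adenocarcinoma line A549, a non-small cell lung cancer line. They were taken from the deposited expression table as every entry whose name starts with HIST1H, HIST2H, HIST3H or HIST4H. The rule found 55 genes with 58 transcripts among the 812 genes and 993 transcripts of the table. The class (H1, H2A, H2B, H3 or H4) is read from the name, and the cluster from the name and the position of the coding region in hg38. Of the 71 genes with such names in the RefSeq annotation, the other 16 have no value in the table and were not analysed here. The study asked how paclitaxel, a drug that binds and stabilises microtubules, changes gene expression and splicing in these cells. The treated cells were kept for 72 h in paclitaxel (7.22 nM), and the control cells for the same time in DMSO, the solvent. The sample label of the control gives no treatment, and the protocol text names DMSO. Each condition has 1 library from bulk cells, so there is no spread between replicates, no test was made, and all differences below are descriptions of these libraries.

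Histones are the proteins around which DNA is wound. Pairs of H2A, H2B, H3 and H4 form the core of the nucleosome, and the linker histone H1 binds the DNA where it enters and leaves that core. Most of the supply is made in S phase, when new DNA has to be packaged, from clustered genes without introns whose mRNAs typically end in a conserved stem-loop and not in a poly(A) tail. The stem-loop is bound by SLBP, which serves in the processing, translation and turnover of these mRNAs. Some of the same genes can also make a longer, polyadenylated mRNA whose 3′ end lies past the stem-loop, a form known from cells that have left the cell cycle.

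All 55 histone genes had lower FPKM (sequenced fragments scaled to the length of the transcript and to the size of the library) in the paclitaxel library than in the control library. Of all 812 genes in the table, 51.0% were at least 2-fold lower with paclitaxel, and of all 993 transcripts 53.9%. The table holds only transcripts that passed the authors' test, and its smallest difference is 1.52 on the log2 scale. Every gene listed therefore had to differ, and the count of 55 speaks only of direction. The summed FPKM of the histone genes was 3932 in the paclitaxel library and 47357 in the control library, a 12.0-fold difference. The median log2 ratio of FPKM, paclitaxel over control, was -4.15 for the histone genes and -1.72 for all listed genes with a ratio. Among the 336 other genes that were lower with paclitaxel and above 0 in both libraries, the median log2 ratio was -2.88. The histone genes ranged from HIST1H3J at -5.64 to HIST4H4 at -1.83. At least 4-fold lower values were found for 53 of the 55 histone genes and for 44.6% of the table. At least 16-fold lower values were found for 30 of the 55 and for 11.5% of the table. In bulk cells, fewer cells in S phase and less histone mRNA per cell cannot be told apart.

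**Figure D1:**
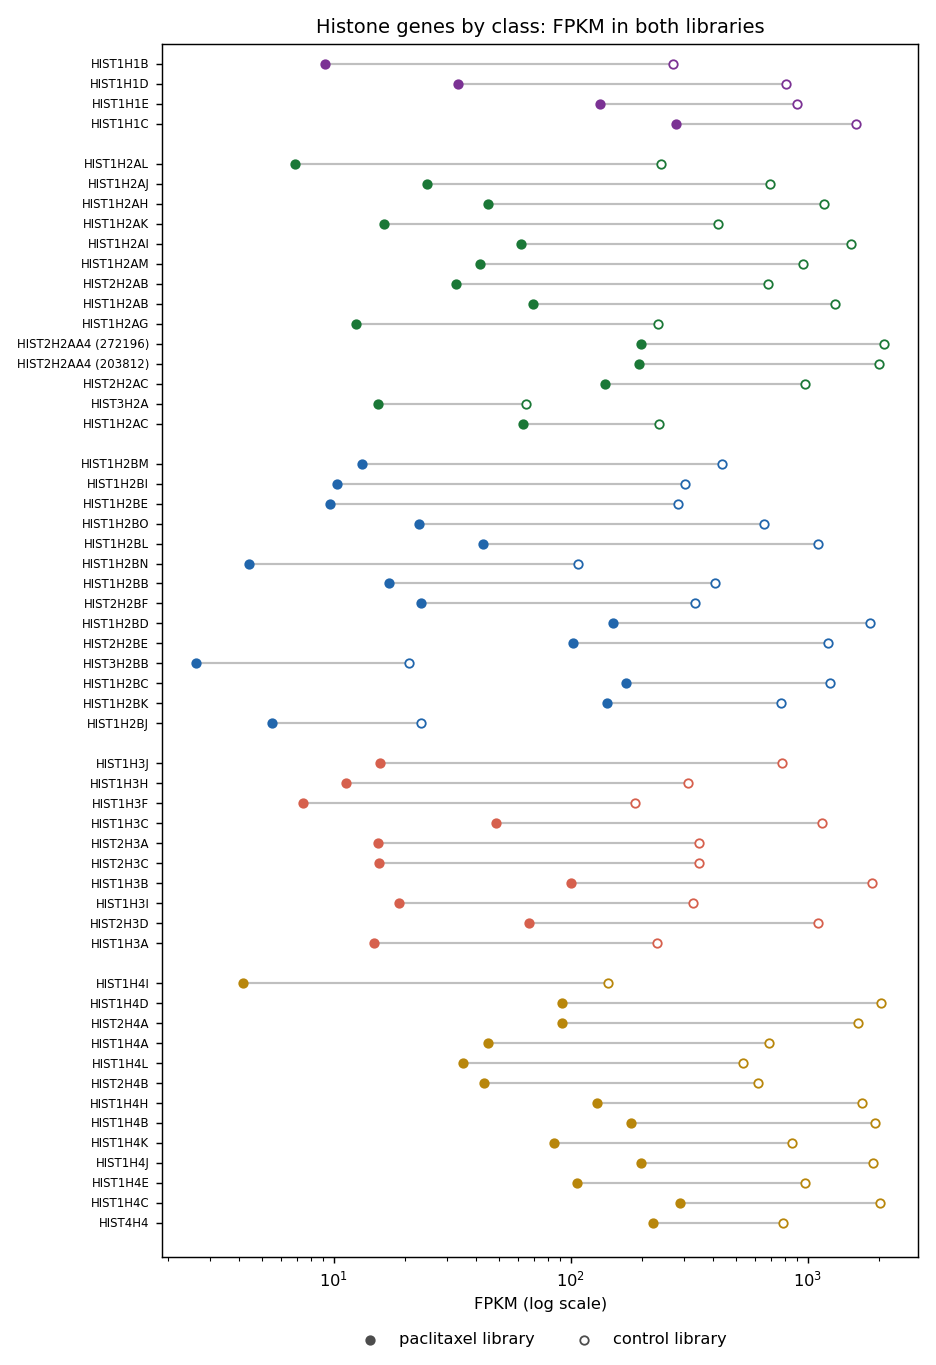
FPKM of the 55 histone genes on a log axis, by class, with the paclitaxel library as filled points and the control library as open points. Each gene is lower in the paclitaxel library, by 49.8-fold for HIST1H3J at one end and 3.55-fold for HIST4H4 at the other, and the digits after HIST2H2AA4 are the last of its gene identifiers.

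In the paclitaxel library, histone genes were 3 of the 10 and 21 of the 50 listed genes with the highest FPKM. In the control library, they were 10 of the 10 and 45 of the 50. They held 30.8% of the summed FPKM of all listed genes in the paclitaxel library and 80.8% in the control library. These shares are of the listed genes only, not of the whole transcriptome. The order of the genes was largely kept between the libraries. Over the 55 genes, log2 FPKM with paclitaxel and log2 FPKM in the control had Pearson's r of 0.85 and Spearman's rho of 0.88. Both values come from the same pair of libraries, and the genes are not independent replicates. The log2 ratio itself had an r of -0.02 and a rho of 0.25 with log2 control FPKM, and an r of -0.05 and a rho of -0.23 with coding length.

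The 3′ stem-loops are shown because they are shared by all 55 histone genes, and their letters set the H4 genes apart from the other classes. Transcripts of GENCODE 44 were searched in the 120 bases after the stop codon. The search was for 16 bases that begin with GG, have a stem of 6 base pairs (G-T pairs allowed) and a loop of 4 bases that begins with T. For a histone gene every coding transcript was searched. For the protein-coding genes, a set that includes histone genes, only the canonical transcript was searched, so the shares below come from unlike searches. The search was written around the known histone structure. It found a match in 55 of the 55 histone genes, 22 to 67 bases after the stop codon, and in 1.51% of 19506 protein-coding genes. In the following sequences, 5′ to 3′ on the strand of the gene, capitals mark the stem and loop.
HIST1H3J: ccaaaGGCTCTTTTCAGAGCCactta
HIST1H2BK: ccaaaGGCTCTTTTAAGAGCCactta
HIST1H4D: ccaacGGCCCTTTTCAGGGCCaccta
HIST1H4I: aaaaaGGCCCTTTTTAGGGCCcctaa
HIST1H4L: tcaaaGGCCCTTCTCAGGGCCaccca
HIST4H4: caaaaGGCCCTTTTCAGGGCCccca
In hg38 the capitals lie at chr6:27890320-27890335 for HIST1H3J, chr6:27146366-27146381 for HIST1H2BK, chr6:26188715-26188730 for HIST1H4D, chr6:27139654-27139669 for HIST1H4I, chr6:27873153-27873168 for HIST1H4L and chr12:14770724-14770739 for HIST4H4. HIST1H4I is on the plus strand and the others are on the minus strand, and all these sites lie in the 3′ UTR. The core of HIST1H3J was the most frequent of 9 distinct cores, in 33 genes, among them all 4 H1 and all 10 H3 genes, 10 H2A genes and 9 H2B genes. With positions counted from 1 at the 5′ end of the capitals, all 13 H4 genes carried T4C and A13G relative to that core, which together keep the stem paired. Of these H4 genes, 8 had only these changes, 4 also had C10T in the loop, and HIST1H4L also had T8C. The change C10A alone was found in 5 genes, 4 of class H2B and 1 of class H2A. The same stem-loop letters stood beside very different ratios. HIST1H4D at -4.46 and HIST4H4 at -1.83 shared 1 core, as did HIST1H3J at -5.64 and HIST1H1C at -2.53.

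By class, the median log2 ratio was -3.68 over 4 H1 genes, -4.31 over 14 H2A genes, -4.21 over 14 H2B genes, -4.49 over 10 H3 genes and -3.72 over 13 H4 genes. The ranges of the classes overlapped. H3 was the tightest class, from -5.64 to -3.96, while H2A ran from -5.13 to -1.91, H2B from -5.03 to -2.09 and H4 from -5.11 to -1.83. At least 16-fold lower values were found for 2 of 4 H1 genes, 9 of 14 H2A genes, 7 of 14 H2B genes, 9 of 10 H3 genes and 3 of 13 H4 genes.

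**Figure D2:**
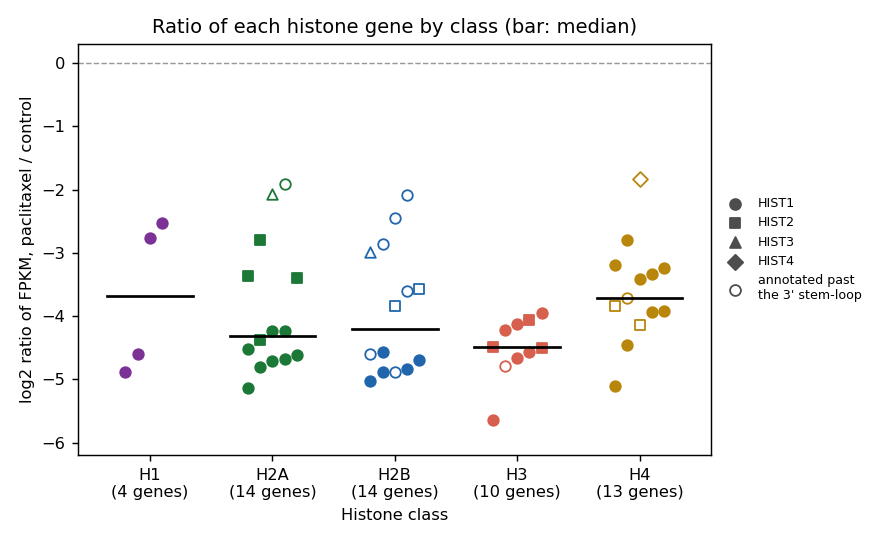
log2 ratio of FPKM, paclitaxel over control, for each histone gene by class, with bars at the class medians, symbols for the cluster, and open symbols for genes with an annotated transcript that runs past the 3′ stem-loop. The H3 genes lie between -5.64 and -3.96, while the highest points of H2A, H2B and H4, at -1.91, -2.09 and -1.83, are open symbols.

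The linker histones divided into a pair with most of the remaining signal and a pair with little. HIST1H1C (H1-2; coding region at chr6:26055787-26056428, minus strand) had 278 FPKM in the paclitaxel library and 1605 FPKM in the control library, a log2 ratio of -2.53. HIST1H1E (H1-4) had 133 FPKM with paclitaxel and 899.8 FPKM in the control, a log2 ratio of -2.76. HIST1H1D (H1-3) had 33.3 FPKM with paclitaxel and 808 FPKM in the control, a log2 ratio of -4.60. The control levels of HIST1H1E and HIST1H1D were thus close, and 14.8% of the control level was left for HIST1H1E but 4.13% for HIST1H1D. HIST1H1B (H1-5), the H1 gene with the lowest level, had 9.21 FPKM with paclitaxel and 271 FPKM in the control, a log2 ratio of -4.88. HIST1H1C alone made up a large part of the H1 sum: that sum was 454 FPKM with paclitaxel and 3584 FPKM in the control, a log2 ratio of -2.98, and without HIST1H1C the log2 ratio of the sum was -3.50.

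Of the H2A genes, which encode the partner of H2B in the nucleosome's outer dimers, the highest levels belonged to the entries named HIST2H2AA4. This name stands in the table for a pair of gene identifiers with identical coding sequences. ENSG00000272196 (H2AC19) had 199 FPKM with paclitaxel and 2102 FPKM in the control, and ENSG00000203812 (H2AC18) had 195 FPKM with paclitaxel and 2001 FPKM in the control. Their log2 ratios were -3.40 and -3.36, and reads of such copies could have been split between them by the counting. HIST1H2AI had 61.7 FPKM with paclitaxel and 1519 FPKM in the control, a log2 ratio of -4.62. HIST1H2AB had 69.2 FPKM with paclitaxel and 1303 FPKM in the control, a log2 ratio of -4.23. Both HIST1 genes were thus further from their control level than the HIST2H2AA4 copies. The largest H2A difference was that of HIST1H2AL, with 6.86 FPKM with paclitaxel and 241 FPKM in the control, a log2 ratio of -5.13. The smallest was that of HIST1H2AC, with 63.1 FPKM with paclitaxel and 237 FPKM in the control, a log2 ratio of -1.91. Nearly equal control levels therefore stood beside 2.85% of the control level left for HIST1H2AL and 26.6% left for HIST1H2AC. HIST1H2AG, at 234 FPKM in the control, lay between them with 12.4 FPKM with paclitaxel, 5.33% of its control level. In cluster HIST2, HIST2H2AC had 139 FPKM with paclitaxel and 974 FPKM in the control, and its neighbour HIST2H2AB had 32.8 FPKM with paclitaxel and 684 FPKM in the control. HIST3H2A, alone in its cluster among H2A genes, had 15.4 FPKM with paclitaxel and 64.8 FPKM in the control, a log2 ratio of -2.08, for a listed transcript of 895 bases that runs past the stem-loop. The other 4 H2A genes, HIST1H2AH, HIST1H2AJ, HIST1H2AK and HIST1H2AM, lay between -4.80 and -4.52.

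The H2B genes fell into a tightly placed lower set and a spread upper set. Of the 4 with the highest control level, HIST1H2BD had 151 FPKM with paclitaxel and 1832 FPKM in the control, a log2 ratio of -3.60. HIST1H2BC had 171 FPKM with paclitaxel and 1245 FPKM in the control, a log2 ratio of -2.86. HIST1H2BL had 42.8 FPKM with paclitaxel and 1103 FPKM in the control, a log2 ratio of -4.69. HIST1H2BC and HIST1H2BL, close in the control library, were thus far apart in the paclitaxel library. HIST2H2BE, the other of the 4, is described with its transcripts. HIST1H2BK had 142 FPKM with paclitaxel and 775 FPKM in the control, a log2 ratio of -2.44. HIST1H2BO, of a like control level, had 22.9 FPKM with paclitaxel and 654 FPKM in the control, a log2 ratio of -4.83. The largest H2B difference was that of HIST1H2BM, with 13.2 FPKM with paclitaxel and 433 FPKM in the control, a log2 ratio of -5.03. HIST1H2BC, HIST1H2BE and HIST1H2BI are known to encode the same H2B protein. Their log2 ratios were -2.86, -4.88 and -4.88, with 171, 9.66 and 10.3 FPKM in the paclitaxel library and 1245, 284 and 305 FPKM in the control library. The lowest H2B levels were those of HIST3H2BB, with 2.64 FPKM with paclitaxel and 20.9 FPKM in the control, and HIST1H2BJ, with 5.48 FPKM with paclitaxel and 23.3 FPKM in the control. HIST1H2BB had 17.1 FPKM with paclitaxel and 405 FPKM in the control, a log2 ratio of -4.56. The listed transcript of HIST1H2BJ (ENST00000607124) has 2 exons and 950 bases in GENCODE 44 and does not contain the stem-loop of the gene, so its value is not that of the short histone mRNA. The listed transcript of HIST3H2BB has 5002 bases in GENCODE 44, where it contains the stem-loop but runs past it. Its deposited locus spans 2364 bases, so the length behind its FPKM is not that of the GENCODE 44 model.

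The transcripts listed for the same H2B gene did not all have the same ratio. HIST2H2BE had 102 FPKM with paclitaxel and 1223 FPKM in the control for ENST00000369160, a log2 ratio of -3.58. Its other transcript, ENST00000369155, runs past the stem-loop to a length of 2224 bases in GENCODE 44. It had 15.3 FPKM with paclitaxel and 56.8 FPKM in the control, a log2 ratio of -1.89. The longer form thus kept 26.9% of its control level and the other 8.38%. In HIST2H2BF the order was the other way round. Its single-exon transcript ENST00000369167 had 23.3 FPKM with paclitaxel and 336 FPKM in the control, a log2 ratio of -3.85. Its transcript of 2 exons and 999 bases, ENST00000545683, had 15.9 FPKM with paclitaxel and 287 FPKM in the control, a log2 ratio of -4.17. HIST1H2BN had 4.41 FPKM with paclitaxel and 107 FPKM in the control for ENST00000612898 (-4.61 on the log2 scale), and 5.99 FPKM with paclitaxel and 92.9 FPKM in the control for ENST00000396980 (-3.96). ENST00000396980 and ENST00000369160 were not found in GENCODE 44. FPKM of transcripts that overlap in full are estimates that divide the same reads.

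H3, which pairs with H4 at the centre of the nucleosome, was the class with the largest relative difference as a sum, at 314 FPKM with paclitaxel and 6649 FPKM in the control, 21.2-fold. HIST1H3J (H3C12; chr6:27890382-27890792, minus strand) had 15.6 FPKM with paclitaxel and 779.7 FPKM in the control, so 2.01% of the control level was left. HIST1H3B, the H3 gene with the highest level in both libraries, had 100.2 FPKM with paclitaxel and 1862 FPKM in the control, a log2 ratio of -4.22. HIST1H3C had 48.3 FPKM with paclitaxel and 1146 FPKM in the control, a log2 ratio of -4.57. HIST1H3A, at the other end of the class, had 14.8 FPKM with paclitaxel and 231 FPKM in the control, a log2 ratio of -3.96. The HIST1 genes of this class are known to encode the variant H3.1 and the HIST2 genes H3.2. The medians of both sets were close, at -4.57 over 7 HIST1 genes and -4.48 over 3 HIST2 genes. Among the HIST2 genes, HIST2H3D had 66.5 FPKM with paclitaxel and 1109 FPKM in the control, a log2 ratio of -4.06. HIST2H3A and HIST2H3C, which have identical coding sequences, had 15.4 and 15.5 FPKM with paclitaxel and 348 and 347 FPKM in the control. HIST1H3F, HIST1H3H and HIST1H3I lay between -4.78 and -4.12, and the listed transcript of HIST1H3H, of 1250 bases, runs past the stem-loop.

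The H4 genes held the largest share of the histone sum in both libraries. HIST1H4D had the highest level of the class in the control library, with 92.4 FPKM with paclitaxel and 2032 FPKM in the control, a log2 ratio of -4.46. HIST1H4C, nearly as high in the control library, had 289.9 FPKM with paclitaxel and 2015 FPKM in the control, a log2 ratio of -2.80. HIST1H4C was thereby the histone gene with the highest FPKM in the paclitaxel library, and HIST1H4D ranked 17 there. HIST1H4B had 181 FPKM with paclitaxel and 1921 FPKM in the control, and HIST1H4J had 199 FPKM with paclitaxel and 1887 FPKM in the control. Their log2 ratios were -3.41 and -3.25. HIST1H4J shares its coding sequence with HIST1H4K, which had 85.3 FPKM with paclitaxel and 859.7 FPKM in the control, a log2 ratio of -3.33. HIST2H4A and HIST2H4B also share a coding sequence, and had 91.8 and 43.2 FPKM with paclitaxel and 1628 and 619 FPKM in the control. The ends of the class were far apart. HIST1H4I had 4.17 FPKM with paclitaxel and 144 FPKM in the control, a log2 ratio of -5.11. HIST4H4 (H4C16; chr12:14770773-14771084, minus strand), which lies alone on another chromosome, had 222 FPKM with paclitaxel and 789 FPKM in the control, a log2 ratio of -1.83. HIST4H4 ranked 26 among the 55 histone genes in the control library and 3 in the paclitaxel library. The other 4 genes, HIST1H4A, HIST1H4E, HIST1H4H and HIST1H4L, lay between -3.94 and -3.20.

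The classes therefore took different shares of a much smaller histone sum. H4 made up 38.7% of the sum in the paclitaxel library and 33.3% in the control library, and H1 made up 11.5% with paclitaxel and 7.57% in the control. H3 made up 7.98% with paclitaxel and 14.0% in the control. H2B was near level at 18.3% with paclitaxel and 18.5% in the control, and H2A made up 23.4% with paclitaxel and 26.6% in the control. The 10 highest genes of each library held 51.6% of the histone sum with paclitaxel and 40.1% in the control, and 6 genes were in both sets of 10. Shares of FPKM are per length of transcript and do not give numbers of protein molecules.

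**Figure D3:**
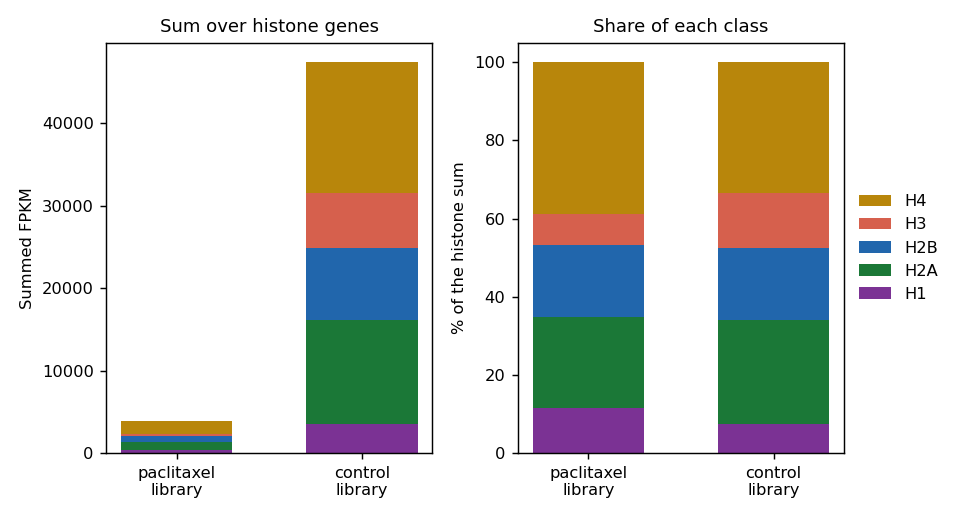
Summed FPKM of the histone genes by class (left) and the share of each class in that sum in percent (right), with the paclitaxel library left of the control library. The sum is 3932 FPKM with paclitaxel and 47357 FPKM in the control, and the H3 share is 7.98% with paclitaxel and 14.0% in the control.

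By position, listed genes whose coding regions lay less than 300 kb apart were taken as a group. HIST1 on chromosome 6 then split into 3 groups of 20 genes (chr6:26020490-26285499), 5 genes (chr6:27132370-27147515) and 16 genes (chr6:27807526-27893843). Their median log2 ratios were -3.95, -4.23 and -4.68, in chromosome order. Histone genes without a value lie within the span of the first group, such as HIST1H3D and HIST1H2BF, but not within the other HIST1 spans. The medians, counts and sums of the groups therefore do not cover their stretches equally. In the group of 16, 13 genes were at least 16-fold lower with paclitaxel, against 9 of the 20 in the first group. The summed FPKM of the group of 16 was 609 with paclitaxel and 11097 in the control, an 18.2-fold difference, and that of the first group was 1950 with paclitaxel and 21672 in the control, an 11.1-fold difference. HIST2 on chromosome 1 (11 genes, chr1:149811943-149887916) had a median of -3.85, between -4.50 and -2.80. Of HIST3, also on chromosome 1, only HIST3H2A and HIST3H2BB are listed (chr1:228457425-228458510), at -2.08 and -2.99, and HIST3H3 has no value in the table. Class and position were not independent, since each group has its own mix of classes. Within H4, the group of 16 was not lower than the first group, with medians of -3.33 over 3 genes and -3.57 over 6. Within H2B, the medians were -4.56 over 5 genes in the first group, -2.27 over the pair in the group of 5, and -4.76 over 4 genes in the group of 16. Within H2A, the 5 genes of the group of 16 had a median of -4.67 and the 4 HIST2 genes one of -3.38.

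**Figure D4:**
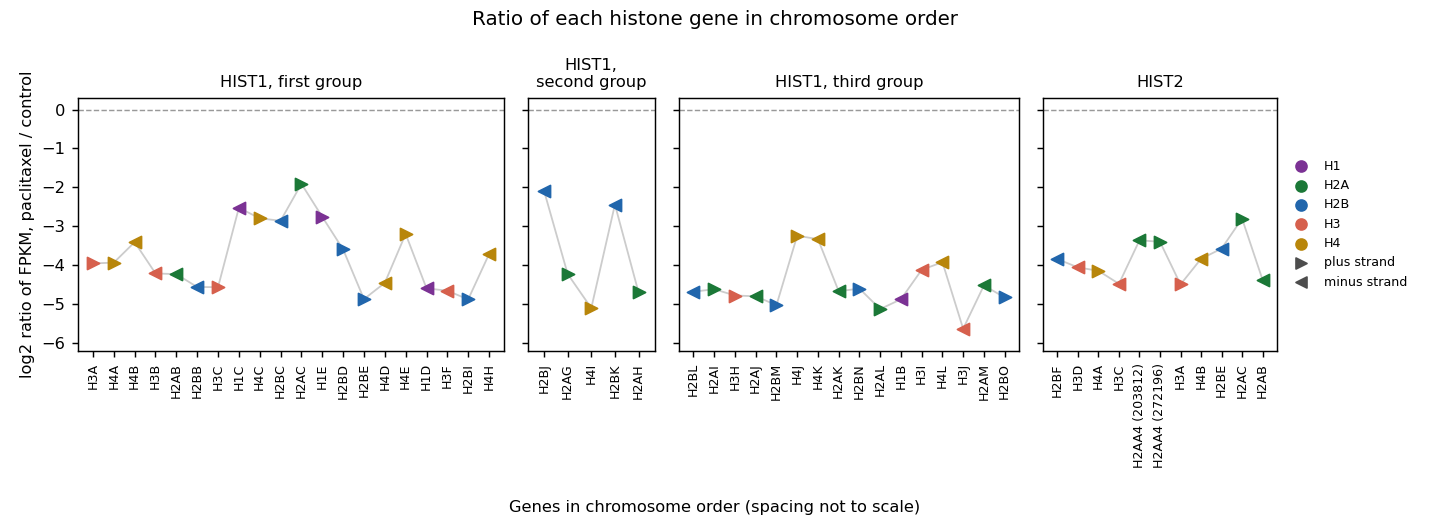
log2 ratio of FPKM, paclitaxel over control, for the genes of the 3 HIST1 groups and of HIST2 in chromosome order (listed genes only, spacing not to scale), with colour for the class and the triangle pointing along the strand. Neighbours from HIST1H1C to HIST1H1E in the first group lie between -2.86 and -1.91, and in the second group HIST1H2BJ and HIST1H2BK at -2.09 and -2.44 stand beside 3 genes between -5.11 and -4.23.

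Neighbours among the listed genes ranged from nearly equal ratios to a difference of 2.66 log2 units. Histone genes without a value in the table lie between some of these neighbours, such as HIST1H1T between HIST1H4C and HIST1H2BC. Over 49 pairs of listed neighbours, the median size of the difference was 0.53. Over all 376 pairs within a group, which include the 49, it was 0.70. The neighbours include copies with identical coding sequences, whose reads could have been split between them. The HIST2H2AA4 copies differed by 0.04, and HIST1H4J and HIST1H4K by 0.09. A run of 5 successive listed genes in the first HIST1 group, HIST1H1C, HIST1H4C, HIST1H2BC, HIST1H2AC and HIST1H1E, lay between -2.86 and -1.91, although they belong to 4 classes. HIST1H3C on the near side of that run had -4.57, and HIST1H2BD on the far side had -3.60. The most different listed neighbours were HIST1H4I at -5.11 and HIST1H2BK at -2.44, which are 6797 bases apart. In HIST2, HIST2H2AC at -2.80 and HIST2H2AB at -4.38 stand end to end on opposite strands, with 159 bases between their coding regions.

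Many H2A and H2B genes stand head to head and share the stretch of DNA between their starts. Among the listed genes there were 9 such pairs, with 194 to 293 bases between starts. The difference between partners had a median size of 0.77 and ran from 0.07 to 2.26. This median was not smaller than the 0.53 over listed neighbours or the 0.70 over all pairs within a group. HIST1H2BL and HIST1H2AI (-4.69 and -4.62), HIST1H2AK and HIST1H2BN (-4.67 and -4.61), HIST1H2AJ and HIST1H2BM (-4.80 and -5.03) and HIST1H2AM and HIST1H2BO (-4.52 and -4.83) were closely matched, and all 4 pairs lie in the group of 16. In that group, all 5 H2A genes lay between -5.13 and -4.52 and all 4 H2B genes between -5.03 and -4.61. The pairs of the group of 5 were the least matched. HIST1H2BK had 18.4% of its control level left, while HIST1H2AH, whose start is 251 bases away, had 44.9 FPKM with paclitaxel and 1169 FPKM in the control, 3.84%. HIST1H2BJ had 23.5% left while HIST1H2AG, 293 bases away, had 5.33%, with the limit that the listed HIST1H2BJ transcript is the spliced one. That transcript begins at the coding region, and RefSeq places the start of HIST1H2BJ nearer to HIST1H2AG, so 293 is an upper value. For HIST1H2BC and HIST1H2AC the log2 ratios were -2.86 and -1.91, for HIST2H2BE and HIST2H2AC -3.58 and -2.80, and for HIST3H2BB and HIST3H2A -2.99 and -2.08.

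The upstream sequences of 4 genes are shown to place the elements searched for in an H1 gene, an H4 gene and the H2B genes HIST1H2BK and HIST1H2BM, which differed widely in ratio. They are the 250 bases before the RefSeq start (GRCh38.p14), 5′ to 3′ on the strand of the gene. Capitals mark matches of a few known elements on either strand. These were the TATA box, searched as TATAAA, and the CCAAT box, which lies upstream of it in many promoters. They were joined by the octamer of histone promoters, searched as ATTTGCAT, and by the element of H1 promoters known as the H1 box, searched with the letters AAACACA. Adjoining capitals can be overlapping matches.
HIST1H2BK: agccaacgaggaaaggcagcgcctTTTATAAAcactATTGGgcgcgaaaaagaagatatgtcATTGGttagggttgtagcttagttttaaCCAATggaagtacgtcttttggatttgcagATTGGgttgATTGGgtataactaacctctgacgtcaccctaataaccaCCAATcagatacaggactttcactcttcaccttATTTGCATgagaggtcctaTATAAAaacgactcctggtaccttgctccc
HIST1H2BM: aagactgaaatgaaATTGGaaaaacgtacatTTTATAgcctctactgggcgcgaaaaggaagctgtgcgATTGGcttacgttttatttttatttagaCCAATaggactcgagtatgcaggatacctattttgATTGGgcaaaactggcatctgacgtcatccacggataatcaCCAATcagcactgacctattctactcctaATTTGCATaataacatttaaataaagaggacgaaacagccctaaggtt
HIST1H1B: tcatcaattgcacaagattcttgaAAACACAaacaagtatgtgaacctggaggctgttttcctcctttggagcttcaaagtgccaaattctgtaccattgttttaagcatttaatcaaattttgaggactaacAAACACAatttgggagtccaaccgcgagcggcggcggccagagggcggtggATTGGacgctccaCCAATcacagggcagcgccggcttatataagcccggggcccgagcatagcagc
HIST1H4D: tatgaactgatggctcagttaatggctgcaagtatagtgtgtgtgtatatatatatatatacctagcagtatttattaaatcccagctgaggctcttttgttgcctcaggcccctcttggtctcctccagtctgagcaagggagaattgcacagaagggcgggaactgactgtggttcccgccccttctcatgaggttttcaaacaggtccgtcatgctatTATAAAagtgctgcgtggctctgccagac
These stretches lie at chr6:27146856-27147105 (minus strand), chr6:27814772-27815021 (plus strand), chr6:27867589-27867838 (minus strand) and chr6:26189113-26189362 (minus strand). HIST1H2BK and HIST1H2BM both had several CCAAT boxes and 1 octamer, and their log2 ratios were -2.44 and -5.03. They differed in the TATA box letters. HIST1H2BK had TATAAA on its own strand close to its start. The only match of HIST1H2BM was on the other strand at the far end of the stretch, where it is the TATAAA of its head-to-head partner HIST1H2AJ. The reverse was also seen. HIST1H2BL at -4.69 had TATAAA on its own strand close to its start, and HIST1H2BC at -2.86 had a match only at the far end. Over the H2B class, the 10 genes with TATAAA on either strand had a median log2 ratio of -4.08, and the 4 without it had -4.23. A RefSeq promoter (250 bases before to 50 after the start) was found for 50 of the 55 genes, 52 promoters in all. Both strands were searched, so a match in a head-to-head pair can belong to the partner gene. TATAAA was found in 71.2% of the histone promoters and in 11.5% of all 35116 promoters of the same length. CCAAT was found in 82.7% of the histone promoters and in 34.6% of all promoters. All promoters of H1, H2A, H2B and H3 genes held CCAAT, but 2 of 11 H4 promoters did. The octamer was found in 11 of 16 H2B and 8 of 13 H2A promoters and in no H1, H3 or H4 promoter, against 1.77% of all promoters. The H1 box was found in 4 of 4 H1 promoters, in 13.5% of all histone promoters and in 5.64% of all promoters. Within H2B, the 10 genes with the octamer had a median log2 ratio of -4.21, and the 4 without it had -4.10. Within H2A, the 8 genes with the octamer had a median of -4.31, and the 5 without it had -3.40. These 5 include both HIST2H2AA4 copies, at -3.36 and -3.40, whose coding sequences are identical, and that median is the value of one of them. A match of letters is a description of the sequence and not evidence of a bound factor.

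Genes for which GENCODE 44 or RefSeq annotates a transcript that ends more than 200 bases past the stem-loop were 16 of the 55. Their median log2 ratio was -3.59, with 4 of the 16 at least 16-fold lower with paclitaxel, and that of the other 39 genes was -4.46, with 26 of the 39 at least 16-fold lower. The 5 histone genes nearest to their control level, HIST4H4, HIST1H2AC, HIST3H2A, HIST1H2BJ and HIST1H2BK, all had such an annotation. The annotation is of the gene and need not be of the transcript with the value. In GENCODE 44 the listed transcripts of HIST3H2A and HIST1H2BJ end that far past the stem-loop, and those of HIST4H4, HIST1H2AC and HIST1H2BK do not. The listed transcripts of HIST1H3H and HIST3H2BB also do, and these genes were at -4.78 and -2.99. This grouping was chosen after the data were seen. Within H2B, 9 genes with it had a median of -3.58, from -4.88 for HIST1H2BE to -2.09 for HIST1H2BJ, and the 5 genes without it lay between -5.03 and -4.56. Within H4 the order was reversed, with a median of -3.78 over 4 genes with it and -3.41 over 9 genes without it. Among genes without it, HIST1H1C at -2.53, HIST1H1E at -2.76, HIST1H4C at -2.80 and HIST2H2AC at -2.80 were also near the upper end. For the methods, both a purification of polyadenylated RNA and a removal of ribosomal RNA are named, and histone mRNAs with a stem-loop end lack the tail that the purification needs. How far the selection of RNA sets these values was not tested.

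Of the genes that regulate, package or accompany histones, those listed were all lower with paclitaxel. Of 18 genes for the control of histone mRNA, among them SLBP and NPAT, which switches on histone transcription, only E2F1 is listed, and the other 17 were not analysed here. E2F1, a transcription factor of S-phase entry, had 2.67 FPKM with paclitaxel and 24.2 FPKM in the control, a log2 ratio of -3.18. Of 12 other histone genes, 3 are listed and all were lower with paclitaxel. CENPA, the H3 variant of centromeres, had 3.49 FPKM with paclitaxel and 40.7 FPKM in the control, a log2 ratio of -3.54. H2AFX, the H2A variant that is phosphorylated at DNA breaks, had 20.2 FPKM with paclitaxel and 123 FPKM in the control, a log2 ratio of -2.61. H2AFZ, a variant deposited outside replication, had 184 FPKM with paclitaxel and 545 FPKM in the control, a log2 ratio of -1.57. Of 21 chaperones and assembly factors, 7 are listed and all were lower, with a median of -2.50, where 51.0% of all listed genes were lower. As the table lists called transcripts only, these counts speak of direction, and the other 14 were not analysed here. Among them ASF1B, which carries H3 and H4 to new DNA, had 1.77 FPKM with paclitaxel and 18.0 FPKM in the control, a log2 ratio of -3.34. CHAF1A and CHAF1B, subunits of the CAF-1 complex that deposits H3 and H4 behind the fork, had log2 ratios of -2.66 and -2.43. HJURP, the CENPA chaperone, had -2.50, TONSL, a reader of newly made H4, had -2.25, and DNAJC9, an H3-H4 co-chaperone, had -1.56.

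**Figure D5:**
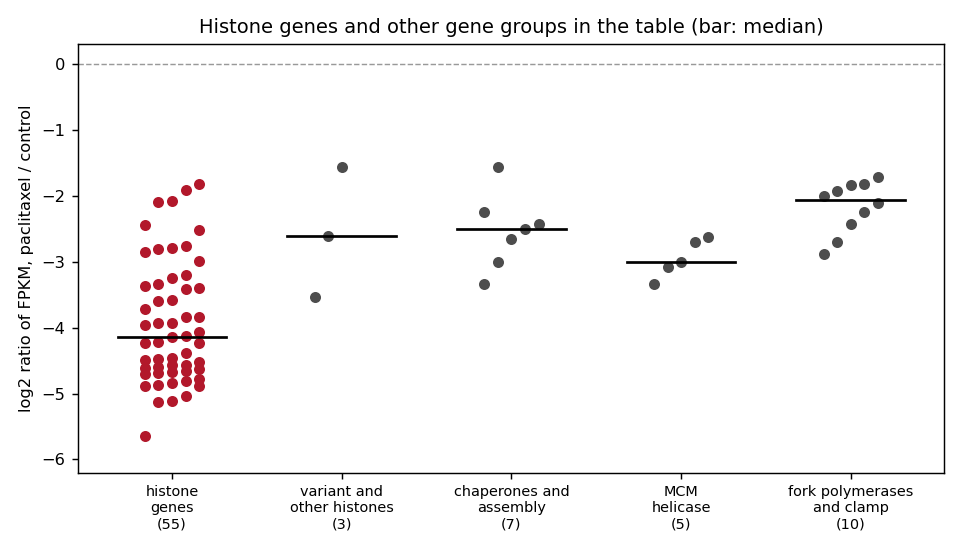
log2 ratio of FPKM, paclitaxel over control, for the 55 histone genes, left, and for the listed genes of 4 other groups, with bars at the medians. The histone median is -4.15, and the others are -2.61 for other histone genes (3 genes), -2.50 for chaperones and assembly factors (7), -3.01 for the MCM helicase (5) and -2.06 for fork polymerases and clamp (10); MCM2 is in both the chaperone and the MCM group.

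The genes of the replication machinery were set beside the histone genes. Of the 6 subunits of the MCM helicase, which unwinds DNA at the fork, 5 are listed and lay between -3.34 for MCM5 and -2.62 for MCM6. Of 23 genes of fork polymerases, clamp loader and related factors, 10 are listed and lay between -2.88 for POLE2 and -1.71 for RFC2. No listed gene of these groups was 16-fold lower, against 30 of the 55 histone genes. No test of this difference could be made with 1 library per condition.

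Among markers of other cells, the haemoglobin genes were high in the paclitaxel library alone. HBA1 had 161 FPKM with paclitaxel and 0.0615 FPKM in the control, HBA2 had 188 FPKM with paclitaxel and 0.0566 FPKM in the control, and HBB had 108 FPKM with paclitaxel and was listed at 0 in the control. The summed level of the 3 listed genes of 11 erythroid markers was 458 FPKM with paclitaxel and 0.118 FPKM in the control, next to 3932 FPKM with paclitaxel and 47357 FPKM in the control for the histone genes. Of 9 leukocyte markers only S100A9 is listed, with 5.85 FPKM with paclitaxel and 0.123 FPKM in the control, and of 8 fibroblast and endothelial markers none. Of 9 lung epithelial markers, KRT19 is listed, with 107 FPKM with paclitaxel and 22.9 FPKM in the control. The other markers have no value in the table, which lists called transcripts only, so their levels are unknown. KRT19 alone is not a check of the cell type. The part of these genes in the histone result was not tested.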

How the data were processed

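The submitters' notes on processing list CASAVA 1.8.2, TopHat, Cufflinks and hg38, and the methods name MapSplice for mapping. The FPKM values were computed by the authors per transcript. The deposited table also holds their fold changes, p-values and q-values, which were not used, and lists called transcripts only. The column marked T was taken as the paclitaxel library. Which annotation release was used is not stated in the sources used here, and 56 of 58 histone transcripts were found by identifier in GENCODE 44. FPKM keeps no reads, so the depth is unknown. For 26 listed loci the span equals the coding region, and for models this short FPKM depends on the assumed fragment length. Of 35827 deposited skipped exon events, 0 lie in histone genes.

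Ratios were computed with no pseudocount and no filter. For the 3 histone genes with several listed transcripts, the one with the largest FPKM was used. The genes of the other groups were treated in the same way, such as MCM5 with 4 listed transcripts. At least 2-fold counted as lower. Named were, per class, the 4 members with the highest control FPKM and both extremes, all members of HIST2, HIST3 and HIST4, members with several transcripts, the most different neighbours and the listed genes of the other groups, and further members so that every gene is accounted for. Members and lists were chosen with earlier results of these data known. Alternatives were another pseudocount, filter, fold, choice of transcript or gene set. Python 3.11.15, pandas 2.3.3, numpy 2.4.6, scipy 1.17.1 and matplotlib 3.10.9 were used, and the summaries were tested on simulated data.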

Additional observations from a re-analysis of the deposited data

How the results depend on the processing

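No histone gene was higher with paclitaxel under any alternative tried, but no alternative could have changed the direction. Each listed histone transcript was lower with paclitaxel, and the alternatives only filter, sum or add the same value to both libraries. Of 57 alternative values for 17 results, 46 moved by less than 0.1 on the log2 scale or, for counts, by less than 1.5 times. Of the rest, 11 moved further and 0 reversed, where a reversal was not possible. Leaving out genes annotated past the stem-loop, a choice made after seeing the data, gave median log2 ratios of -4.46 for all histone genes, -4.45 for H2A, -4.83 for H2B and -3.41 for H4. A pseudocount of 1 FPKM gave -4.06 for H2B, -4.32 for HIST1 and -2.30 for HIST3. Summing the listed transcripts of a gene gave -4.27 for HIST1 and -3.99 for HIST2. Without the gene of highest control FPKM, the log2 ratio of the summed FPKM was -3.50 for H1 and -3.26 for H4. Of the 55 genes, 53 remained lower at a 4-fold minimum, and 51 distinct coding sequences stand behind the count. No paired analysis was possible because each condition has 1 library. Depth limits what can be said, since FPKM carries no counts and no counting error could be given. Genes with identical coding sequences, 4 pairs among the 55, limit the division of reads between their members.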
